A study of Mus musculus with 12 samples.

Results

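The genes described here are 39 of the 38911 genes counted in these libraries, and they encode the route by which cells build the sugar precursor of N-linked glycans and attach it to proteins. They were taken by symbol from a list of the pathway's genes and fall into 9 genes that supply and activate mannose, 5 that make and recycle dolichol, 6 that act on the cytosolic face of the endoplasmic reticulum (ER), 7 that act on its luminal face and 12 subunits of oligosaccharyltransferase. All 39 passed the filter on low counts. PolyA RNA was sequenced from mouse gastruloids, aggregates of embryonic stem (ES) cells that break symmetry and form mesoderm in culture, here grown from 200 E14TG2a cells each, which in all groups had been cultured before aggregation in 2iLIF medium (a Wnt agonist, an ERK pathway inhibitor and LIF, which hold ES cells in naive pluripotency), and harvested on day 4. From day 3 they were kept in 1X glucose (21.25 mM), in 0X glucose (0 mM), in 3X glucose (63.75 mM), or in 1X glucose with 5 mM 2-deoxyglucose (2-DG), and every group had received the Wnt pathway agonist CHIR on the day before treatment began, which induces mesoderm. Each of the 4 groups holds 3 libraries, made from ES cells of passage 13, 15 and 16 of the same line. A library pools the gastruloids that had the same treatment in a plate, so that the replicates are cultures of a single line rather than animals.

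N-linked glycans are assembled on dolichol, a long isoprenoid lipid of the ER membrane. Sugars are added stepwise, on the cytosolic face from nucleotide sugars such as GDP-mannose and then, after the lipid has been flipped, on the luminal face from dolichol-phosphate mannose and dolichol-phosphate glucose, and oligosaccharyltransferase finally moves the finished glycan onto asparagines of proteins entering the ER. 2-DG blocks hexokinase, but it also resembles mannose and is known to interfere with the assembly of these glycans.

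Counts per library ran from 31902471 to 45956080, and the 39 genes took 0.269% to 0.374% of them. The labels give the cell type as embryonic stem cell. Yet 6 pluripotency markers summed to only 30.0 to 72.1 CPM (counts relative to library size) in any library. Most of that sum was Pou5f1 (20.3 to 53.1 CPM). The 7 markers of primitive streak and nascent mesoderm, in contrast, summed to 257 to 798 CPM. Values below are CPM scaled by TMM factors (a correction for library composition), listed in the order of passages 13, 15 and 16, and tests are edgeR quasi-likelihood tests with Benjamini-Hochberg adjustment over all 16966 genes tested and a threshold of 0.05. In pooled tissue, fewer cells expressing a gene and less RNA per cell cannot be told apart.

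2-DG changed this pathway unevenly. Of the 39 genes, 13 rose and 2 fell against 1X glucose, where 9.12% of all genes tested rose and 8.51% fell. Oligosaccharyltransferase contributed 7 of the 13 genes that rose, while the genes that supply mannose contributed 1. The median log2 fold change of the 39 genes was 0.16, and that of all genes tested was 0.0023. In 20 genes every 2-DG library lay above every 1X library and in 5 genes every one lay below, against 18.3% and 17.2% of all genes tested. With passage as a block the counts were 16 higher and 6 lower, against 21.1% and 20.2% of all genes in that fit.

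**Figure D1:**
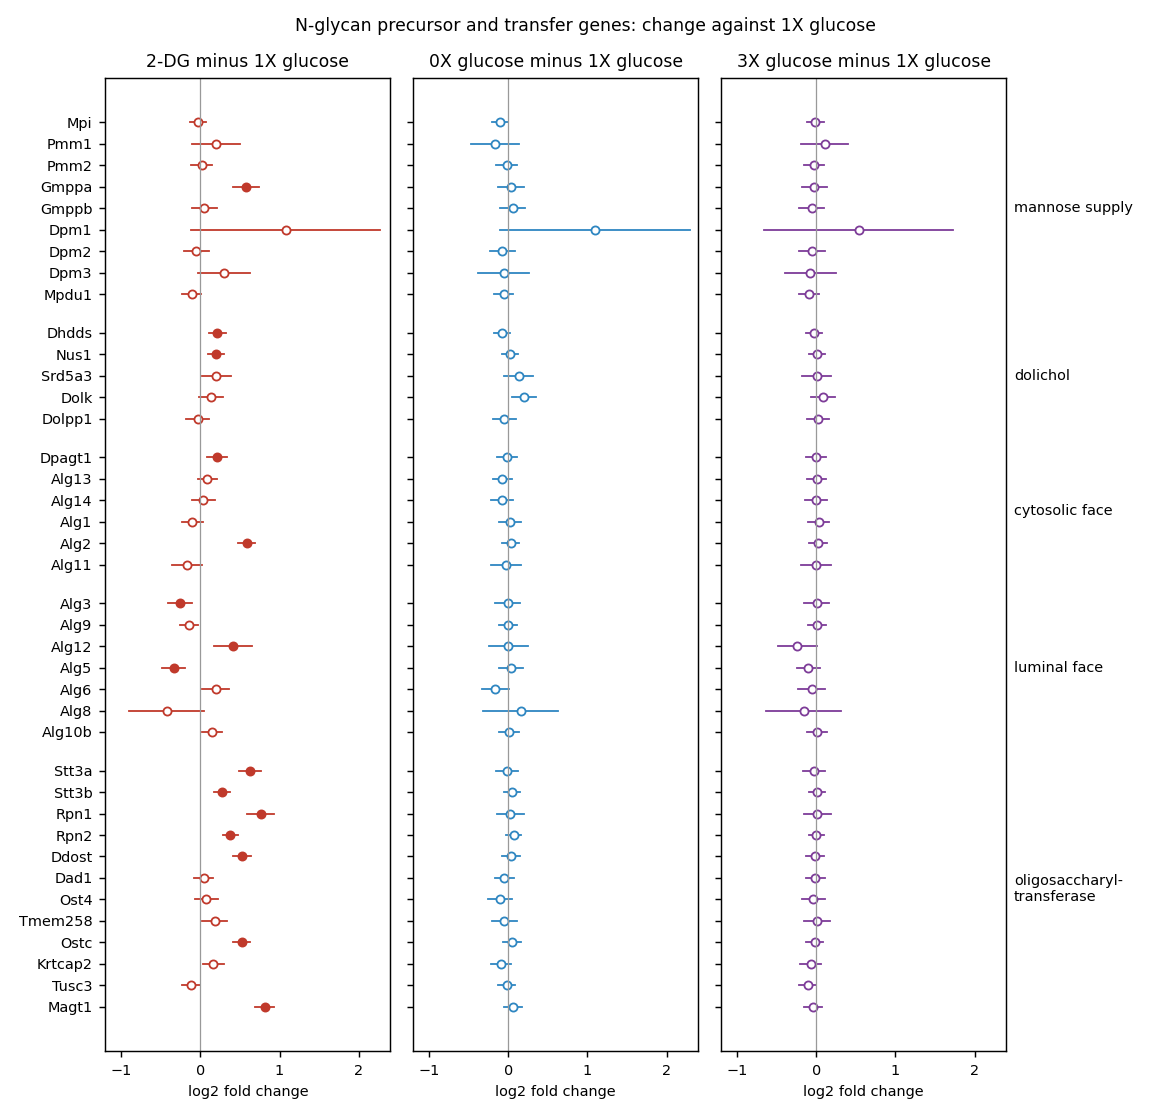
Log2 fold change of each of the 39 genes against 1X glucose (horizontal axis) in 2-DG, 0X glucose and 3X glucose, grouped by role. Circles are edgeR estimates, lines their nominal 95% intervals (normal approximation), and filled circles pass the adjusted threshold. Filled circles appear in the 2-DG panel alone, with 13 to the right of zero and 2 to the left, and the widest interval is that of Dpm1.

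Mannose enters the pathway through Mpi, the phosphomannose isomerase that converts fructose 6-phosphate to mannose 6-phosphate and back. Mpi was at 47.2, 48.8 and 46.9 CPM in the 1X libraries and at 47.4, 46.3 and 45.9 CPM in the 2-DG libraries. These ranges overlap, and the log2 fold change of -0.034 had a nominal 95% interval (a normal approximation) of -0.14 to 0.069 (adjusted p = 0.72). Pmm2, the main phosphomannomutase, which makes mannose 1-phosphate, was at 37.9, 40.3 and 39.8 CPM in 1X and 39.8, 39.9 and 39.6 CPM in 2-DG, with an interval of -0.11 to 0.14 (adjusted p = 0.912). Its relative Pmm1 was at 71.4, 51.9 and 57.7 CPM in 1X and 76.7, 59.9 and 70.6 CPM in 2-DG. Pmm1 was the higher in 2-DG within each of the 3 passages, but the passages themselves differed so much that the groups overlapped (log2 fold change 0.20, SE 0.15, adjusted p = 0.433). With passage as a block Pmm1 passed the test (adjusted p = 0.00506).

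GDP-mannose, the donor for the cytosolic steps and the source of dolichol-phosphate mannose, is made by a pyrophosphorylase of a catalytic subunit, Gmppb, and a regulatory subunit, Gmppa. Gmppa was the sole gene of mannose supply that rose, from 29, 26.9 and 27.3 CPM in 1X to 45, 38 and 40.9 CPM in 2-DG, a log2 fold change of 0.57 (SE 0.082, adjusted p = 0.00148). All 3 2-DG libraries lay above every 1X library. With the most abundant transcript of the gene alone in place of the sum over its transcripts, the estimate was 0.91 but the call was lost (adjusted p = 0.906). Gmppb, in contrast, was at 12.6, 12.7 and 12.2 CPM in 1X and 13.4, 13.2 and 12.4 CPM in 2-DG, and its interval of -0.11 to 0.21 lay entirely below the estimate for Gmppa. The difference between the subunits was not tested.

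Dolichol-phosphate mannose is made by Dpm1, the catalytic subunit, held in the membrane by Dpm2 and Dpm3. Dpm1 had the largest estimated change of the 39 genes (1.08) and also the largest error (SE 0.61, adjusted p = 0.261). Its values were 6.48, 17.8 and 4.71 CPM in 1X, 14.8, 17.3 and 28.7 CPM in 2-DG, 17.3, 13.3 and 31 CPM in 0X and 4.29, 20.1 and 17.6 CPM in 3X glucose. The groups overlap, and low and high libraries occurred in 1X and in 3X glucose alike, so that no difference was detectable. By comparison Dpm2 stayed between 20.5 and 24.9 CPM in all 12 libraries. Dpm3 was at 9.77, 9.26 and 7.97 CPM in 1X and 14, 9.78 and 9.46 CPM in 2-DG, where the passage 13 library alone stood above 10 CPM (log2 fold change 0.30, adjusted p = 0.246). Mpdu1, which lets dolichol-phosphate sugars be used in the lumen, had a log2 fold change of -0.11 (adjusted p = 0.253).

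In the dolichol group, both subunits of the cis-prenyltransferase that builds the lipid chain rose slightly. Dhdds, the catalytic subunit, was at 40.2, 38.1 and 37 CPM in 1X and 44.7, 43.5 and 45.7 CPM in 2-DG, a log2 fold change of 0.21 (SE 0.053, adjusted p = 0.02). Nus1, its partner, was at 128, 132 and 129.9 CPM in 1X and 152, 153 and 144 CPM in 2-DG, a log2 fold change of 0.20 (SE 0.052, adjusted p = 0.0234). Neither gene's groups overlapped, yet both calls were lost when a single library was left out, Dhdds without 1X passage 15 or 16 or 2-DG passage 13 or 16, and Nus1 without any 1X library or 2-DG passage 13 or 15. Srd5a3, which reduces polyprenol to dolichol, and Dolk, the dolichol kinase, had estimates of 0.20 and 0.13 (adjusted p = 0.168 and 0.281). Dolpp1, a phosphatase that recycles the carrier, was at 27.6, 25.4 and 24.6 CPM in 1X and 26.4, 25.9 and 23.5 CPM in 2-DG, with an interval of -0.18 to 0.11.

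On the cytosolic face, the clearest change was in Alg2, which adds the second and the third mannose. Alg2 was at 83.1, 86.6 and 92.2 CPM in 1X and 132, 136 and 125 CPM in 2-DG, a 1.5-fold difference and a log2 fold change of 0.59 (SE 0.055, adjusted p = 0.000165). Its 2-DG libraries lay above all 9 others. Dpagt1 starts the glycan by moving GlcNAc-phosphate onto dolichol phosphate and is the enzyme blocked by tunicamycin. It was at 48.3, 48.4 and 47.1 CPM in 1X and 59.3, 54.6 and 52 CPM in 2-DG, a log2 fold change of 0.21 (SE 0.064, adjusted p = 0.0495). The groups did not overlap, but the call sat at the threshold and was lost without any 1X library and without 2-DG passage 13 or 15. None of the 4 other genes passed: Alg13 and Alg14, the partner subunits of the enzyme for the second GlcNAc, had estimates of 0.090 and 0.038, Alg1, which adds the first mannose, -0.10, and Alg11, which adds the fourth and the fifth, -0.17 (adjusted p = 0.334, 0.774, 0.37 and 0.267). Alg11 was lower in 2-DG in each of the 3 passages and was called with passage as a block (adjusted p = 0.0176).

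The luminal genes did not move together. Alg12, which adds the eighth mannose, rose from 10.1, 9.47 and 11.4 CPM in 1X to 16.2, 12.3 and 12.5 CPM in 2-DG, a log2 fold change of 0.41 (SE 0.12, adjusted p = 0.044). Alg3, which adds the sixth mannose and so opens luminal extension, fell from 25.5, 29.5 and 28 CPM to 22.2, 24.5 and 22.7 CPM, a log2 fold change of -0.26 (SE 0.079, adjusted p = 0.0482). Alg5, the dolichol-phosphate glucose synthase, fell from 30.5, 27.2 and 25.6 CPM to 23, 20.8 and 22.1 CPM, a log2 fold change of -0.34 (SE 0.075, adjusted p = 0.0122). For all 3 genes the groups were separate, although for Alg12 the 2-DG passage 13 library was well above the other 2 and the groups came within 1 CPM of each other. Leaving out single libraries removed the Alg12 call (without 1X passage 13 or 15 or any 2-DG library), the Alg3 call (without 1X passage 15 or 16 or any 2-DG library) and the Alg5 call (without 2-DG passage 15).

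Alg9, which adds the seventh and the ninth mannoses, and the glucosyltransferases Alg6, Alg8 and Alg10b did not pass the test (log2 fold change -0.14, 0.19, -0.42 and 0.15). Alg8 was at 15.9, 25.3 and 22.8 CPM in 1X and 13.4, 17.5 and 16.7 CPM in 2-DG. It was lower in 2-DG in each passage, but its passage 13 libraries were the lowest of their group in all 4 groups, and the groups overlapped (adjusted p = 0.267). With passage as a block Alg8 and Alg9 were called lower and Alg10b higher (adjusted p = 0.00342, 0.0238 and 0.00545).

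**Figure D2:**
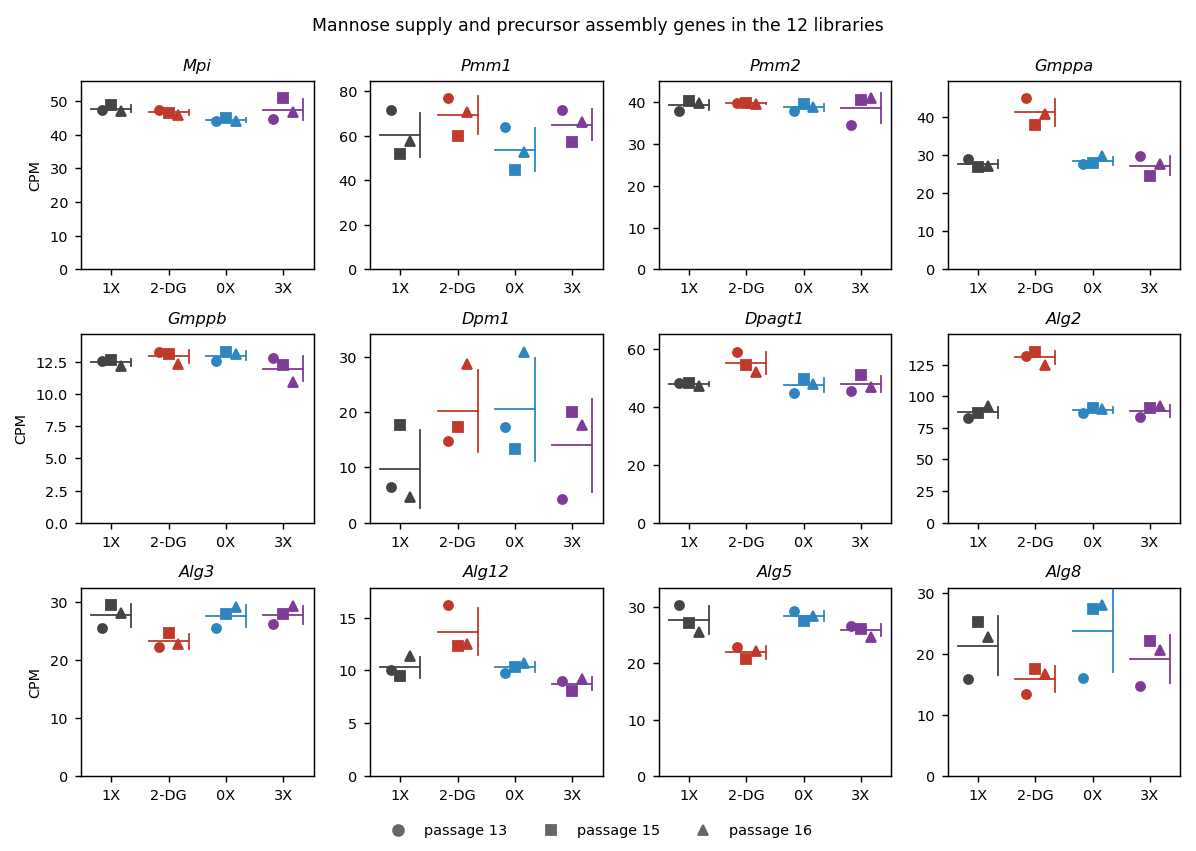
Level in CPM (vertical axis, from zero) of 12 genes of mannose supply and glycan assembly in each library, by treatment; symbols mark the ES cell passage, horizontal lines the group mean and vertical lines 1 SD (n = 3). Gmppa and Alg2 stand higher in all 3 2-DG libraries, Mpi and Pmm2 lie level across groups, and Dpm1 and Alg8 differ widely between libraries of the same group.

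Oligosaccharyltransferase exists in a form with the catalytic subunit STT3A, which sits at the translocon and modifies proteins as they enter the ER, and a form with STT3B, which works on sites the former has skipped. The 12 subunit genes summed to 1652, 1749 and 1721 CPM in 1X and 2469, 2386 and 2251 CPM in 2-DG, the larger part of the increase in all 39 genes (2731, 2862 and 2812 CPM to 3689, 3584 and 3436 CPM). Of the 12, 7 rose, none fell, and the median log2 fold change was 0.33.

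Both catalytic subunits rose. Stt3a was at 213, 244 and 234 CPM in 1X and 369, 354 and 343 CPM in 2-DG (230.1 ± 15.9 and 355 ± 13.2, mean and SD, n = 3), a log2 fold change of 0.63 (SE 0.071, adjusted p = 0.000442). Stt3b was at 212, 229 and 232 CPM in 1X and 278, 278 and 258 CPM in 2-DG, a log2 fold change of 0.28 (SE 0.053, adjusted p = 0.00624). In either gene the lowest 2-DG library was above the highest 1X library.

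Among the subunits common to both forms, the 3 large ones rose. Rpn1 (ribophorin I), which presents substrate to the catalytic site, was at 239.7, 271 and 282 CPM in 1X and 449, 453 and 442 CPM in 2-DG, a 1.7-fold difference and a log2 fold change of 0.76 (SE 0.087, adjusted p = 0.000448). Ddost (OST48) was at 185, 188 and 184 CPM in 1X and 282, 281 and 240.5 CPM in 2-DG, a log2 fold change of 0.53 (SE 0.057, adjusted p = 0.00033). Rpn2 (ribophorin II) was at 299, 313 and 311 CPM in 1X and 414, 411 and 372 CPM in 2-DG, a log2 fold change of 0.37 (SE 0.048, adjusted p = 0.000841). In all 3 genes the 2-DG libraries lay above all 9 libraries of the other groups, with the passage 16 library the lowest of the 2-DG group. The 3 small subunits that complete the core did not pass: Dad1 had an estimate of 0.043, Ost4 of 0.077 and Tmem258 of 0.18 (adjusted p = 0.691, 0.538 and 0.15). Tmem258 was called higher with passage as a block (adjusted p = 0.018).

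The STT3A form is tied to the translocon by Ostc and Krtcap2 (KCP2). Ostc was at 105, 104 and 101 CPM in 1X and 161, 146 and 139 CPM in 2-DG, a log2 fold change of 0.53 (SE 0.055, adjusted p = 0.000286). Krtcap2 was at 57.8, 60.1 and 54.4 CPM in 1X and 70.3, 61.7 and 60.8 CPM in 2-DG, and although its groups were separate the difference did not pass (0.16, SE 0.066, adjusted p = 0.12). The STT3B form instead carries MAGT1 or TUSC3, related thioredoxin-fold proteins that hold cysteines of the substrate. Magt1 showed the strongest call of the 39 genes, from 93.8, 101 and 100.1 CPM in 1X to 184, 169.6 and 164 CPM in 2-DG, a 1.76-fold difference and a log2 fold change of 0.81 (SE 0.060, adjusted p = 5.12e-05). It too was lost with the most abundant transcript alone (0.71, adjusted p = 0.0814). Tusc3 was at 75.7, 72 and 69.6 CPM in 1X and 72.1, 65.7 and 62.6 CPM in 2-DG. Its groups overlapped and the difference did not pass (-0.12, SE 0.056, adjusted p = 0.181), but Tusc3 was the lower in 2-DG in each passage and was called lower with passage as a block (adjusted p = 0.0403).

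**Figure D3:**
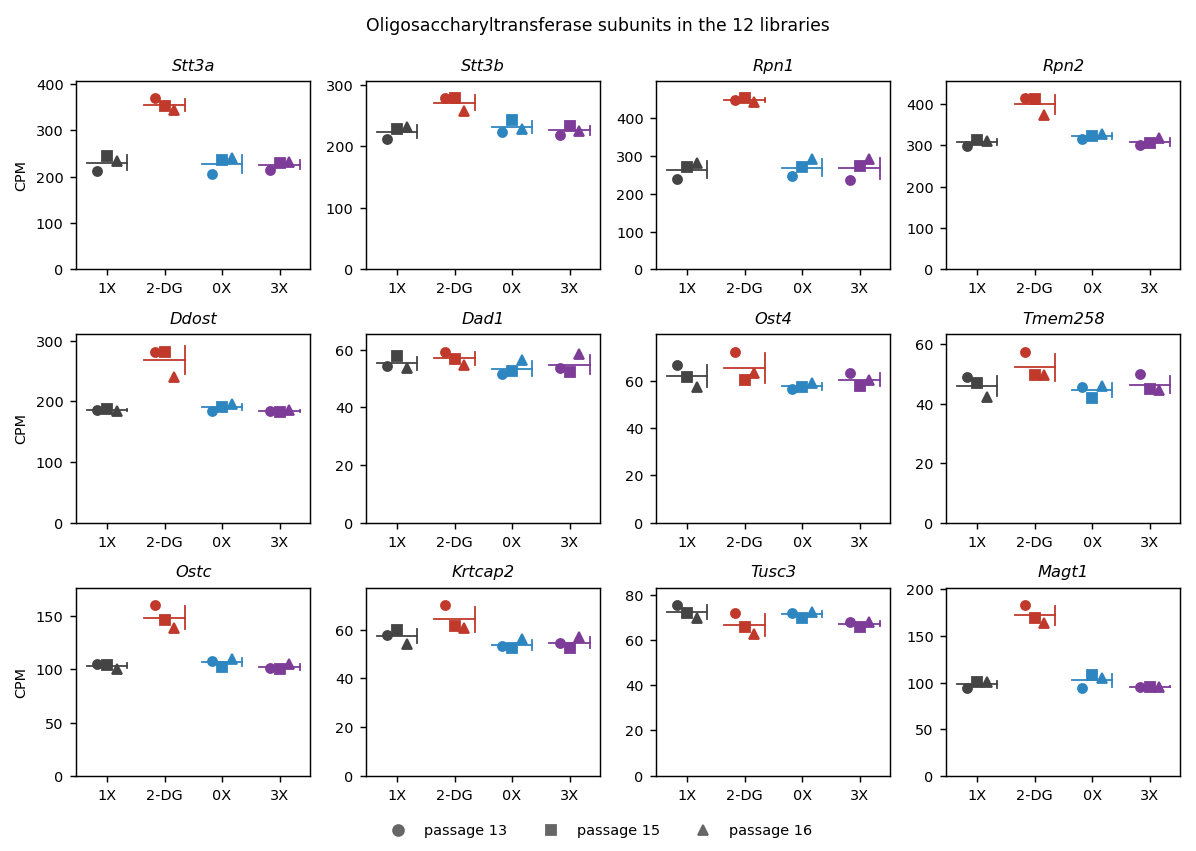
Level in CPM (vertical axis, from zero) of the 12 oligosaccharyltransferase subunit genes in each library, by treatment; symbols mark the ES cell passage, horizontal lines the group mean and vertical lines 1 SD (n = 3). Stt3a, Stt3b, Rpn1, Rpn2, Ddost, Ostc and Magt1 stand apart in 2-DG, whereas Dad1, Ost4 and Tusc3 overlap across groups.

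Since the paired subunits are measured in the same library, their ratio does not depend on scaling between libraries. The log2 ratio of Magt1 to Tusc3 counts was 0.31, 0.48 and 0.52 in 1X and 1.35, 1.37 and 1.39 in 2-DG, a mean difference of 0.93. The 2-DG libraries lay close together and above the other 9, which ranged from 0.31 to 0.63. For Stt3a to Stt3b the log2 ratio was 0.0025, 0.090 and 0.013 in 1X and 0.41, 0.35 and 0.41 in 2-DG, a mean difference of 0.35, again without overlap. The 2-sided exact permutation p was 0.1 for each (0.133 after adjustment over the 4 ratios computed), which is the smallest that 3 libraries against 3 can give. Pmm2 to Pmm1 was -0.91, -0.36 and -0.53 in 1X and -0.95, -0.59 and -0.83 in 2-DG (difference -0.19, exact permutation p = 0.4). Subunits particular to the STT3A form (Krtcap2 plus Ostc) against those particular to the STT3B form (Magt1 plus Tusc3) differed by -0.082 between 2-DG and 1X (exact permutation p = 0.1), and here the 0X libraries spanned the 2-DG values.

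**Figure D4:**
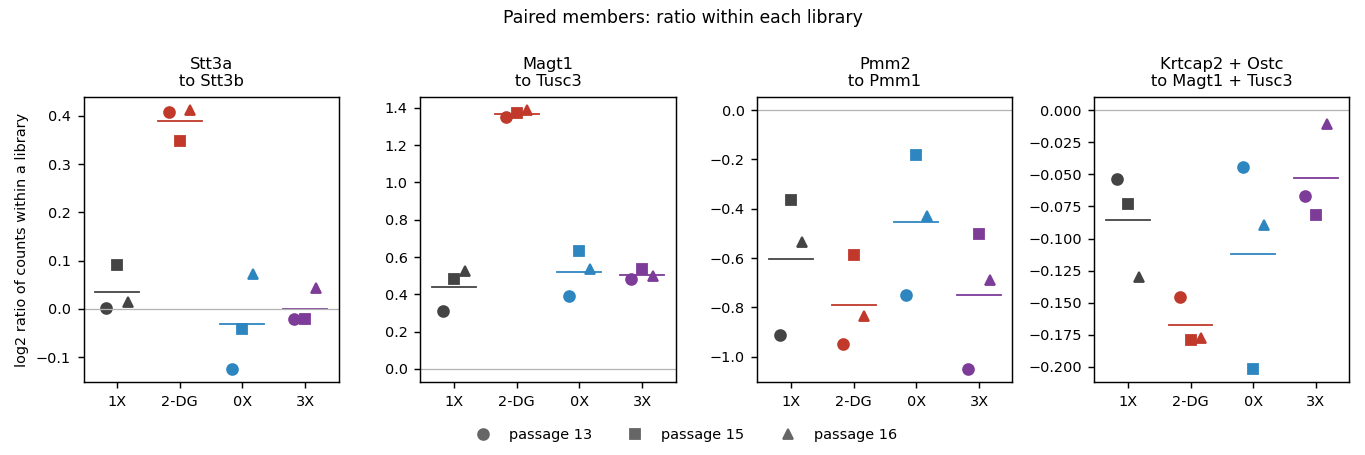
Log2 ratio of counts of paired members within each library (vertical axis, a different scale in each panel), by treatment; symbols mark the ES cell passage and horizontal lines the group mean. The 2-DG libraries stand apart for Magt1 to Tusc3 and for Stt3a to Stt3b, and the treatments overlap for Pmm2 to Pmm1.

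Compared per kilobase of transcript, the highest levels were those of oligosaccharyltransferase subunits. Rpn2 stood highest in 1X glucose, at 112 ± 2.79 CPM per kb, although only 52.3% of its counts fell on transcripts with a length. In 1X glucose Ostc, Ddost, Tmem258, Rpn1, Ost4 and Dad1, whose lengths are known for nearly all of their counts, stood at 96.9 ± 2.26, 87.6 ± 0.815, 76.6 ± 5.63, 72.7 ± 6.0, 72 ± 5.31 and 55.8 ± 2.34 CPM per kb (mean and SD, n = 3). Tmem258, Rpn1 and Ost4 are neighbours in that order that lie within their spread. Not every subunit was high, since Magt1 stood at 21.8 ± 0.853 CPM per kb in 1X glucose. Stt3b stood at 53.1 ± 2.51 and Stt3a at 39.2 ± 2.72 CPM per kb in 1X, and at 64.3 ± 2.77 and 60.6 ± 2.24 in 2-DG, so that levels that were separate in 1X lay within 2 SD of each other in 2-DG. By comparison the enzymes of the luminal face, leaving Alg12 aside, stood lower in 1X glucose, with means from 8.13 (Alg6) to 19.3 (Alg10b) CPM per kb. Such levels were not particular to that face. Dolk of the dolichol group, Alg14 of the cytosolic face and Gmppb of mannose supply stood at 7.33, 7.83 and 8.75 CPM per kb. Other genes of these groups were higher, such as Nus1, Alg2 and Pmm1 at 28.2, 28.9 and 46.4 CPM per kb. For Tusc3, Alg12, Gmppa, Krtcap2 and Dhdds only a minority of the counts fell on transcripts with a length in the reference (0.667%, 19%, 21.1%, 30.0% and 30.2%), and no level per length is given for them.

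Between glucose concentrations no difference in these genes passed the test. In 0X against 1X glucose 0 of the 39 genes passed, where 0.0118% of all genes did, and 1 had an unadjusted p under 0.05. That gene was Dolk, the dolichol kinase, at 15.4, 15 and 15.8 CPM in 1X and 17.4, 16.6 and 19.3 CPM in 0X (log2 fold change 0.20, SE 0.078), without overlap. DESeq2 also called 0. Leaving Dpm1 aside, estimates ran from -0.17 (Pmm1) to 0.20 (Dolk), with a median over the 39 genes of -0.0076. For the genes that rose most in 2-DG the nominal intervals were -0.055 to 0.18 for Magt1 and -0.16 to 0.12 for Stt3a. They were -0.14 to 0.20 for Rpn1 and -0.076 to 0.14 for Alg2. In 2 genes all 0X libraries lay above all 1X libraries and in 3 all lay below, against 2.69% and 2.94% of all genes tested. Mpi was among the latter, at 44, 45 and 44.2 CPM in 0X glucose (log2 fold change -0.10, SE 0.053).

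In 3X against 1X glucose 0 of the 39 genes passed in edgeR or DESeq2 and 0 had an unadjusted p under 0.05, and 0% of all genes passed in edgeR. Alg12 had the lowest estimate, at 9.02, 8.02 and 9.17 CPM in 3X glucose (log2 fold change -0.24, nominal 95% interval -0.48 to 0.0063), and every 3X library lay below every 1X library. This held for 3 of the 39 genes, and the reverse for 1, against 2.38% and 2.09% of all genes tested. Tusc3 was similarly lower without overlap, at 68.1, 65.9 and 67.9 CPM (-0.11, SE 0.056). In 3X against 0X glucose, the widest contrast of sugar, 0 of the 39 passed in edgeR or DESeq2 (0.0118% of all genes in edgeR) and 0 had an unadjusted p under 0.05. With passage as a block Pmm1 alone was called, higher in 3X (log2 fold change 0.28, adjusted p = 0.0314), where that fit called 0.802% of all genes. Pmm1 was higher in 3X than in 0X in each passage, at 63.8, 44.7 and 52.5 CPM in 0X and 71.3, 57.3 and 66.1 CPM in 3X.

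A direct test of 2-DG against 0X glucose compares both ways of limiting glucose use. It shares its 2-DG libraries with the comparison against 1X glucose and its 0X libraries with the preceding one. In it 15 of the 39 genes were higher in 2-DG and 1 was lower, against 9.86% and 9.04% of all genes tested. Alg3 was lower in 2-DG without overlap but did not pass here (adjusted p = 0.0518, with passage as a block 0.00412). Log2 fold changes were 0.75 for Magt1, 0.73 for Rpn1, 0.65 for Stt3a, 0.55 for Alg2, 0.54 for Gmppa, 0.49 for Ddost, 0.48 for Ostc, 0.41 for Alg12, 0.31 for Rpn2, 0.29 for Dhdds, 0.23 for Stt3b, 0.22 for Dpagt1, 0.18 for Nus1 and -0.37 for Alg5. Alg6, which adds the first glucose, was at 21.9, 21.5 and 23.7 CPM in 0X and 32.1, 27 and 26.8 CPM in 2-DG, a log2 fold change of 0.36 (SE 0.086, adjusted p = 0.0169). Krtcap2 was at 53.2, 52.4 and 56.2 CPM in 0X, a log2 fold change of 0.25 (SE 0.067, adjusted p = 0.0241). With passage as a block 20 were higher and 5 lower (21.5% of all genes in each direction). Those called with the block alone were, higher in 2-DG, Pmm1, Alg13, Alg10b, Ost4 and Tmem258 (adjusted p = 0.000123, 0.0031, 0.00877, 0.0243 and 0.00547) and, lower, Alg3, Alg8, Alg9 and Alg11 (for the latter 3, 0.000512, 0.0248 and 0.0404). Without 1 library the calls of Nus1 (2-DG passage 13 or 15, 0X passage 13 or 16), Dpagt1 (the same libraries), Alg12 (2-DG passage 13 or any 0X library), Alg6 (2-DG passage 13, 0X passage 15) and Krtcap2 (2-DG passage 13, 0X passage 13 or 15) were lost.

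Some of these genes also differed between libraries of different ES cell passages. In the fit with treatment and passage, 8 of the 39 differed between passages, where 46.2% of all genes tested did. Of these 8, Alg8 differed most, at 15, 23 and 22 CPM in passages 13, 15 and 16 (means over 4 treatments, adjusted p = 0.00022). Pmm1 went the other way, at 70.8, 53.5 and 61.7 CPM (adjusted p = 7.24e-05). Alg11, Alg3, Alg10b and Rpn1 were lowest in passage 13 and Alg13 and Tmem258 highest there, by at most 0.21 on the log2 scale. The treatment groups hold each passage once, so that these differences are balanced across treatments. Passage here cannot be told apart from the plate or date of a culture. The p-values for passage cover the spread between libraries and not between cultures.

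Genes next to the pathway were read from lists chosen along with it, and their counts stand against the 9.12% of all genes that rose in 2-DG and the 8.51% that fell. In 2-DG against 1X glucose all 16 ER chaperones and folding factors rose, with a median log2 fold change of 1.16. Hspa5 (BiP), the central chaperone of the ER lumen, went from 596, 659.9 and 619 CPM to 1509.8, 1356 and 1204 CPM (1.12, SE 0.085, adjusted p = 5.12e-05). Of a list of 10 genes, made of targets of the stress factor ATF4 and Atf4 itself, 8 rose, Atf4 among them (median of the list 0.49). These are larger changes than the 0.33 of oligosaccharyltransferase as medians, and the difference was not tested. Upstream, 2 of 8 genes of isoprenoid supply rose, Mvd (0.54) and Hmgcs1 (0.35), both enzymes of the mevalonate pathway that feeds dolichol. Among 22 genes of other users of GDP-mannose or dolichol-phosphate mannose, 2 rose, a share near that of all genes, and 3 fell. Those that rose were Gmds (0.62), which turns GDP-mannose towards GDP-fucose, and Pomt2 (0.49), of protein O-mannosylation, and those that fell were Tmem260 (-0.49), Dpy19l3 (-0.42) and Pigv (-0.27). Of 5 genes for glucose uptake and its first steps 1 passed, Hk2, the hexokinase isoform of growing cells, at 179, 180.3 and 190.1 CPM in 1X, 153, 134 and 134 CPM in 2-DG and 248, 264 and 217 CPM in 0X glucose (2-DG against 1X -0.38, adjusted p = 0.00584). In the fit with passage as a block, 4 rose and 2 fell among the genes of isoprenoid supply, 6 rose and 4 fell among the other mannose users, and 2 rose and 1 fell among those of glucose uptake, where 21.1% and 20.2% of all genes did.

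Some cell type markers also moved with 2-DG. Summed markers of primitive streak and nascent mesoderm ranged from 521 to 768 CPM in 1X and from 257 to 406 CPM in 2-DG (3 of 7 fell). Neural markers ranged from 59.0 to 149 CPM and from 115 to 265 CPM, which overlap (3 of 6 rose and 1 fell). Pluripotency markers ranged from 36.9 to 51.9 CPM and from 58.4 to 72.1 CPM (1 of 6 rose). Most of the neural sum came from Sox2 and most of the pluripotency sum from Pou5f1. Neither gene passed (adjusted p = 0.595 and 0.133). Of all genes tested, 9.12% rose and 8.51% fell. Paraxial mesoderm markers overlapped (240.1 to 1092 CPM and 419 to 952 CPM), and the sums of 5 feeder fibroblast markers were 11.1 to 15 CPM and 10.2 to 14 CPM. Endoderm markers also overlapped (23.3 to 190.4 CPM and 19.2 to 70.0 CPM, 1 of 4 fell), while those of blood and endothelium were at 3.07 to 10.3 CPM in 1X and 1.82 to 1.99 CPM in 2-DG (1 of 5 fell). In the fit with passage 5 of 7 primitive streak, 3 of 4 endoderm and 4 of 5 blood and endothelium markers fell. There 4 of 6 pluripotency markers rose, 4 of 6 neural markers rose and 1 fell, and of 4 feeder fibroblast markers tested 1 rose and 2 fell. That fit called 21.1% of all genes tested higher and 20.2% lower. The part of these marker changes in the values of the 39 genes was not tested.

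Promoters were read because ER chaperone genes are known for a shared element, the ER stress response element ERSE (CCAAT, 9 bases of any kind, then CCACG), which ATF6 and XBP1 use together with NF-Y. RefSeq windows of GRCm38.p6, from 250 bases before to 50 bases after the start site, were given for 33 of the 39 genes (36 windows) and were searched on both strands, also for ERSE-II (ATTGG, any base, then CCACG), for TGACGTGG and for the ATF4-type element TGATGNAA. The windows of Gmppb, Dpagt1, Alg2, Alg11, Ostc and Tusc3 were not analysed here. ERSE occurred in 1 of the 36 windows, that of Alg12, and in 0.119% of all 32851 windows, while it occurred in 7 of the 14 ER chaperone genes with a window. ERSE-II occurred in 1 of the 2 Krtcap2 windows, which overlap, and in 0.0365% of all windows. The other 2 motifs occurred in 0 of the 36 windows, and in 0.676% and 3.97% of all windows. The stretches that hold the matches (in capitals) are shown with the upstream 250 bases of Magt1 and Rpn1, the genes called with the largest changes, in which no letters are capitals because none of the motifs was found. Alg12 is given as chr15:88819319-88819568, minus strand, Krtcap2 as chr3:89246478-89246507, plus strand, Magt1 as chrX:106011803-106012052, minus strand, and Rpn1 as chr6:88084223-88084472, plus strand, each in the direction of the gene.
Alg12: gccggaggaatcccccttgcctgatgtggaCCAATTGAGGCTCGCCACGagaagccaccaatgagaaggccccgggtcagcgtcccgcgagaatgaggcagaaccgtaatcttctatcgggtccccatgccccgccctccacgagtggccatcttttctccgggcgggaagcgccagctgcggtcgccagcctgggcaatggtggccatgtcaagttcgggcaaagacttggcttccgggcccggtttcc
Krtcap2: ccagggacacggATTGGACCACGgacgggg
Magt1: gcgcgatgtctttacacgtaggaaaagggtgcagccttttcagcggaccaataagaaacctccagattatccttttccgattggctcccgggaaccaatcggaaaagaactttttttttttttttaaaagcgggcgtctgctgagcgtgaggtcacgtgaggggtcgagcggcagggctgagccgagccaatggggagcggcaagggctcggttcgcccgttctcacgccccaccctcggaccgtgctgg
Rpn1: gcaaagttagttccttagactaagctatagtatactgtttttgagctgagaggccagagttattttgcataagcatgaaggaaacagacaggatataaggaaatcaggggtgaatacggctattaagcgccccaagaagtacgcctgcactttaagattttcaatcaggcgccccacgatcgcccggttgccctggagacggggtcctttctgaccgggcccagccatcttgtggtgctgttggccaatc

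The Alg12 match lay 220 to 202 bases before its start site, and the Krtcap2 match 17 to 27 bases after the start site of its window and beyond the end of the other Krtcap2 window. Alg12 is transcribed away from Creld2, an ER folding factor whose start site lies 328 bases off on the opposite strand, and the same 19 bases lie 126 to 108 bases before the Creld2 start. Creld2 was at 39.8, 34.2 and 35 CPM in 1X and 138, 110.1 and 93.7 CPM in 2-DG (1.65, SE 0.12, adjusted p = 5.12e-05), so that both genes were higher in 2-DG and Creld2 by the larger estimate. Of the 10 genes with a window that rose in 2-DG, Alg12 alone held an ERSE. A match of letters is a description of the window, and its part in the measured levels was not tested.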

How the data were processed

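PolyA RNA of 12 libraries (directional kit) was sequenced by the authors, who trimmed reads with Trim Galore, aligned them to mm10 with HISAT2, removed duplicates with Picard and estimated transcripts with StringTie (versions not given in the sources used here). The deposited estimated counts per RefSeq transcript are whole numbers and were not normalized. Other deposited tables hold the authors' DESeq2 fold changes and p-values and were not used.

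Counts of 120312 transcripts were summed per gene symbol (RefSeq, GRCm38.p6, 100% matched), since the split of counts between transcripts of a gene can vary between libraries. Genes were filtered with edgeR filterByExpr (minimum count 10, minimum total 15), scaled by TMM and fitted in R 4.3.3 with edgeR 4.0.16 in a quasi-likelihood model of the 4 groups without a passage term. Fold changes are on the log2 scale of that model, and CPM are shown without a prior count. Intervals are normal approximations from the estimate and its SE at a nominal 95%, and are narrower than the quasi-likelihood test implies. For Srd5a3 and Tusc3 in 2-DG against 1X glucose they exclude zero, although the unadjusted p of that test was 0.0545 and 0.0613. Ratios of paired genes were compared by a 2-sided exact permutation test over libraries. The scripts were tested on simulated counts.

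Passage numbers come from the labels, which do not say whether libraries of the same passage shared a culture, a plate or a date. Deviations of libraries from their group means correlated at 0.066 to 0.55 within passages (18 pairs) and at -0.37 to 0.13 between passages (36 pairs), so passage was fitted as a block as an alternative, and its values are given where they change a member's call and, for the lists of other genes, as counts. No libraries were duplicates (at most 9.67% identical values). Alternatives were no filter, median-of-ratios factors, DESeq2 1.42.0, the most abundant transcript of each gene, the compared groups alone and each library left out. Because replicates are cultures of a single line, p-values of tests without a passage term measure the spread between such cultures. That spread includes shifts that all treatments of a passage share. With passage in the fit, those shared shifts are taken out. The p-values for treatments then measure how far the treatment differences vary between passages, together with the spread between libraries.

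The members, the lists of neighbouring genes and the motifs were chosen with earlier results of these data known. A single neighbouring gene is not reported here. Values in each library were given for Mpi, Pmm1, Pmm2, Gmppb, Dpm1, Dpagt1, Stt3a, Stt3b, Rpn1, Ddost, Tusc3 and Magt1 whatever they showed, and in each role group for up to 3 further genes called in either direction with the largest changes; genes called in any other comparison were named. Some other genes are described for their groups that did not overlap or for their spread, chosen after their values were seen.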

Additional observations from a re-analysis of the deposited data

How the results depend on the processing

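The count of 15 genes called in 2-DG against 1X glucose was 11 without the filter, 15 with median-of-ratios factors or DESeq2, 10 with the compared groups alone, 22 with passage as a replicate block (16 higher, 6 lower), 14 without the passage 13 libraries (a setting chosen after seeing the data), 7 with the most abundant transcript alone, and 10 to 12 with single libraries left out. Of these 15, 7 (Alg2, Stt3a, Stt3b, Rpn1, Rpn2, Ddost and Ostc) were called under all 13 alternatives, and Gmppa, Magt1 and the other 6 failed with the most abundant transcript alone. In that setting the own counts of Stt3a, Stt3b, Rpn1, Ddost and Ostc were unchanged, because a single transcript holds 100% of them. Against 0X glucose the 16 became 25 with the replicate block, 7 with the most abundant transcript alone, and 11 to 16 with single libraries left out, and both remaining contrasts with 1X glucose gave 0 throughout. In 3X against 0X glucose the replicate block gave 1 and all other settings 0. Genes differing between passages numbered 8, and 2 with the most abundant transcript alone.

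No called gene reversed direction. Estimates near zero did: with the most abundant transcript alone Mpi (0.37), Pmm2 (-0.033), Gmppb (-0.12), Dolpp1 (0.33), Alg14 (-0.50), Ost4 (-0.11) and the difference in the log2 ratio of Krtcap2 plus Ostc to Magt1 plus Tusc3 (0.098, exact permutation p = 0.4); Pmm2 without the filter (-0.0028), without passage 13 (-0.012) or without 1X passage 13 (-0.011); Dpm2 (0.013) and Dolpp1 (0.019) without 1X passage 13; Ost4 without 2-DG passage 13 (-0.0038); and Dolpp1 without 2-DG passage 16 (0.019). With single libraries left out the estimates were -0.011 to 0.024 for Pmm2, -0.069 to 0.019 for Dolpp1, -0.0038 to 0.13 for Ost4 and -0.11 to 0.013 for Dpm2. In the same settings the log2 ratio differences were 0.34 to 0.38 for Stt3a to Stt3b, 0.86 to 0.97 for Magt1 to Tusc3, -0.34 to -0.066 for Pmm2 to Pmm1 and -0.10 to -0.066 for the STT3A to STT3B subunits. Taken within passages (the replicate block) they were unchanged in size, with a smallest possible exact p of 0.25. Nus1 and Alg5 lost their calls with the most abundant transcript alone, although a single transcript holds 100% of their counts. Their own counts were thus the same in that setting. The cause of the losses with the most abundant transcript alone was not tested.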

Other observations

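The spread of Dpm1 stood apart from that of the other 38 genes. Its SD within groups was 0.89 on the log2 scale, the next were Alg8 (0.34) and Pmm1 (0.21), and the median of the 39 genes was 0.075. Its highest library (0X glucose, passage 16, 31.0 CPM) was 7.23 times its lowest (3X glucose, passage 13, 4.29 CPM).

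For Pmm1 the counts moved between transcripts of the gene. The curated coding transcript held 539, 1968 and 1829 counts in the 1X libraries of passages 13, 15 and 16, while a predicted non-coding transcript held 2696, 4 and 841. In the 0X libraries the coding transcript held 240, 1493 and 1689 counts and the non-coding model 1782, 5 and 13. The gene sums used here do not depend on this split, whereas a test per transcript would.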
